A study of Mus musculus with 2 samples.

Results

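The expression of 10 genes of pluripotent cells was described in CH cells, small cells circulating in the blood of healthy mice. The genes were Dppa2, Dppa3, Dppa4 and Dppa5a of the Dppa family (developmental pluripotency associated), together with L1td1, Fbxo15, Utf1, Zfp296, Sall4 and Tdgf1, which are mostly known as targets or partners of Oct4. They were chosen by name, with earlier results of these data known, so their levels beside all genes are a description alone. Every probe set that named a single one of them in the platform annotation was taken. All 10 had a probe set, 10 of 18193 genes on the array that could be named in this way, and they had 14 probe sets of 45037. CH cells, labelled PlCH, were sorted by flow cytometry from the peripheral blood of adult C57bl/6 mice of both sexes, with 15 mice to a pool and an age of 7 months as the labels state them. The general methods of the study give another pool size and a younger age for its mice. There was 1 group of 2 arrays, 1 per pool, named by the submitters as biological replicates, and neither a treatment nor a control. The sort kept viable cells that bound a DNA dye and lacked CD45 and the lineage markers of blood, so no positive surface marker defines them, and a pool of sorted cells gives an average in which few cells with much RNA of a gene and many cells with little cannot be told apart. The measurement was the log2 signal of Affymetrix probe sets, groups of short oligonucleotides that each read the 3' part of a transcript.

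Oct4, encoded by Pou5f1, is a transcription factor that keeps cells of the early embryo and embryonic stem (ES) cells pluripotent. It binds an 8-base DNA motif, the octamer, often beside a site of Sox2, and the joined motif is known as the Oct-Sox element. The genes described here are known from ES cells and embryos, where they are high in the undifferentiated state and mostly fall silent as cells differentiate. Their products differ in kind. Dppa2 and Dppa4 are chromatin proteins with a SAP domain that act as a pair. Dppa3 (Stella) is a maternal factor that protects methylated DNA in the fertilized egg, and Dppa5a has an RNA-binding fold. L1td1 is an RNA-binding protein derived from a transposon, Fbxo15 is an F-box protein, Utf1, Zfp296 and Sall4 are nuclear factors, and Tdgf1 (Cripto) is a co-receptor of Nodal at the cell surface. In the RefSeq annotation of GRCm38.p6, Dppa4 and Dppa2 lie beside each other on chromosome 16, with 0 protein-coding genes between them. Dppa3 lies between Gdf3 and Nanog on chromosome 6, also with 0 between it and each of them.

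The octamer letters were found upstream of 1 member. RefSeq promoter windows of GRCm38.p6 were searched in the 250 bases before each annotated start, on both strands, for the octamer ATGCAAAT, whose reverse complement is ATTTGCAT, and for the Oct-Sox element, written as CATTGT, then any base, then ATGCAAA. The element ends in ATGCAAA, the first 7 letters of the octamer, so both motifs can overlap. Of the members, 4 had a window in the table, Zfp296, Utf1, L1td1 and Tdgf1. Zfp296 held the octamer on the opposite strand, its outermost base 111 bases before the start. Of all 32851 windows, 526 (1.60%) held it. The other 3 members held neither motif, and ATGCAAA alone, present in 4.12% of all windows, was found in none of those 3. CATTGT, a Sox core found in 10.7% of windows, and TATAAA, the TATA box found in 12.4%, were absent from all 4 members. For comparison, the upstream windows of Nanog and Zfp42, which each hold a motif, are shown as well. Windows of other regulators and transcripts of ES cells were also searched. Most of them, among them those of Pou5f1 and Klf4, held neither motif, while a window of Spp1 held the octamer. The Oct-Sox element was found in 2 of the 32851 windows (0.00609%), and both were windows of Nanog that share the same site. Zfp42, the gene of Rex1, held the octamer 186 bases before its start. The sequences run 5′ to 3′ on the strand of the gene, and capitals mark the octamer, or in Nanog the Oct-Sox element. The windows are Zfp296 at chr7:19577037-19577286 (plus strand), Utf1 at chr7:139943606-139943855 (plus), Nanog at chr6:122707239-122707488 (plus) and Zfp42 at chr8:43307010-43307259 (minus). Utf1 is shown as a member with no capitals, and sequence outside these 250 bases was not searched for any gene. A match describes the letters alone, and binding was not measured.
Zfp296: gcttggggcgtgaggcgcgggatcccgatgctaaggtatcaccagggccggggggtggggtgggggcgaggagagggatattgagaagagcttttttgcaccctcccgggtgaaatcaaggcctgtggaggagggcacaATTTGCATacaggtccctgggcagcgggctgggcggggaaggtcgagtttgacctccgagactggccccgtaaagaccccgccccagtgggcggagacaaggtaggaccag
Utf1: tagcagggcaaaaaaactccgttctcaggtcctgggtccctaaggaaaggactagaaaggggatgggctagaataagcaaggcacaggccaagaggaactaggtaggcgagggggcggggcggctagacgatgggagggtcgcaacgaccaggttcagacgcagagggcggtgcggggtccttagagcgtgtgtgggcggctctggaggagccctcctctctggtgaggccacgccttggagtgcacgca
Nanog: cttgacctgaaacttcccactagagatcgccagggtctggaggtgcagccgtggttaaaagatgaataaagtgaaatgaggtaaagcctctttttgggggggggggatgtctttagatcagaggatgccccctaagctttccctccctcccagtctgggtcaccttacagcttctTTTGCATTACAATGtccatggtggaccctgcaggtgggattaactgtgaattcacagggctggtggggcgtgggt
Zfp42: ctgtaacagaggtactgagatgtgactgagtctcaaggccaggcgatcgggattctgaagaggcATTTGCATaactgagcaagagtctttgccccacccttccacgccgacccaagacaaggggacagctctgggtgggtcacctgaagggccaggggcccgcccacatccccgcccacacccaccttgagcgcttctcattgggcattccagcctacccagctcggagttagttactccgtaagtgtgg

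All 10 genes were above 5 (log2) on both arrays, the value below which the study removed genes from its clustering, applied here to the CH cell arrays alone. Of all genes, 71.2% were above it as well. The median of the members, each taken at its highest probe set, was 8.15, beside 6.84 for all genes. Between the members, signals ran from 5.60 for Fbxo15 to 10.44 for Dppa5a. All 14 probe sets of the members were above 5 on both arrays, where 57.2% of all probe sets were. The signal of a probe set also depends on the affinity of its oligonucleotides, so these values do not rank transcripts by abundance. As background served the probe sets of 77 chemosensory receptor genes, which act in smell and taste. Their median was 4.03 and their 95th percentile 6.02. On both arrays, 13 of the 77 were above 5, and the highest, Vmn1r44, had 6.96 and 6.88. Of the members, 7 of 10 lay above the 95th percentile of the receptors on both arrays, beside 57.5% of all genes. The mean of the same 7 genes lay above that of Vmn1r44. A limit of 8 was passed by 5 of 10 members and by 37.0% of all genes.

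**Figure D1:**
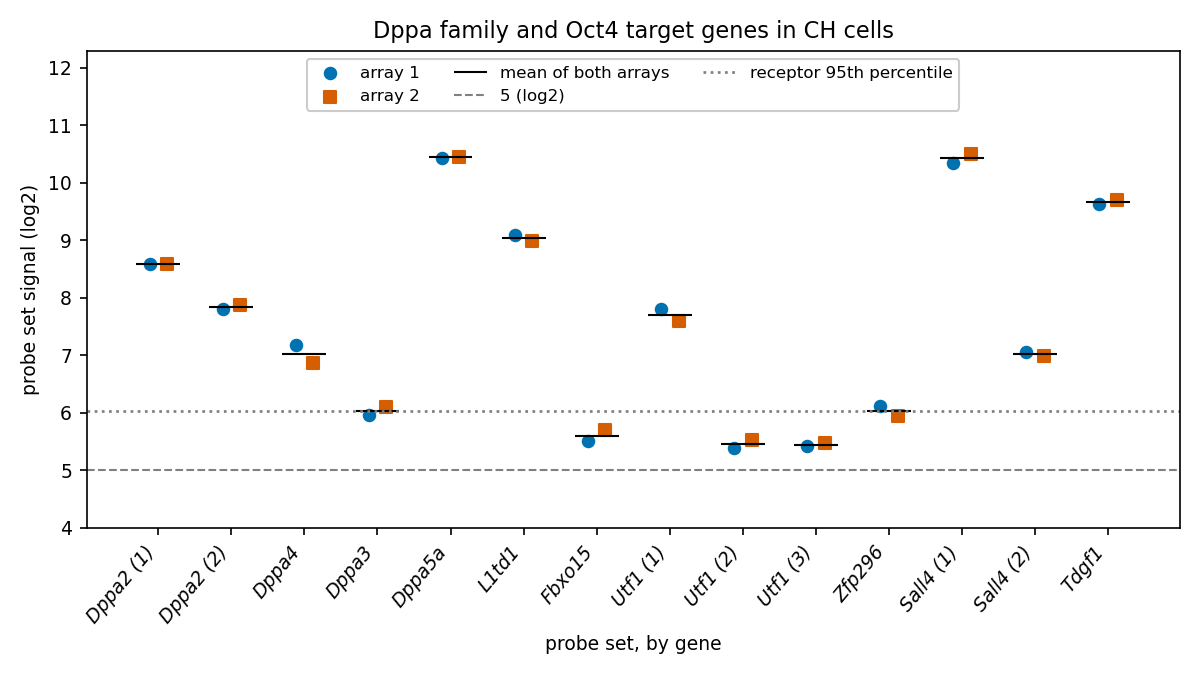
Log2 signal of the 14 probe sets of the 10 genes on the CH cell arrays, with a circle for array 1, a square for array 2 and a bar at their mean. The numbers in brackets count the probe sets of a gene from the highest, a dashed line is drawn at 5 and a dotted line at 6.02, the receptors' 95th percentile. Dppa5a and one probe set of Sall4 lie above 10, while Fbxo15 and the 2 lower probe sets of Utf1 lie between both lines.

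The 4 genes of the Dppa family were spread over most of that range. Dppa5a, also called Esg1, had signals of 10.43 and 10.45, a mean of 10.44 ± 0.01 (SD, n = 2 arrays), and 92.5% of all probe sets lay below it. Its arrays were nearly equal. Dppa2 was read by 2 probe sets. The one designed to read several transcripts (1453223_s_at) had 8.586 and 8.593, and the other (1429654_at) had 7.81 and 7.88. Both probe sets of Dppa2 were above the highest receptor gene, and the first of them had the smallest difference between arrays of all members, 0.0067. Dppa4, the partner of Dppa2, had 7.17 on array 1 and 6.86 on array 2, a mean of 7.02 ± 0.22. This was the largest difference among the members, 0.31, and its array 2 value was just below the 6.88 that Vmn1r44 reached there. Dppa3 had 5.95 and 6.09, with a mean of 6.02 ± 0.10, so its arrays lay on either side of the receptors' 95th percentile. Probe sets of 5 receptor genes had higher means than Dppa3. Of the neighbours of Dppa3, Nanog had 7.62 and 7.94, and Gdf3 had 6.01 and 6.11.

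Among the genes for RNA binding and protein turnover, L1td1 was high and Fbxo15 was near the limit. L1td1 had 9.09 and 8.99, a mean of 9.04 ± 0.07 (SD, n = 2 arrays). Both values were above 8. Fbxo15, which gives an SCF ubiquitin ligase its substrate and was an early reporter gene of reprogramming, had 5.50 and 5.69, a mean of 5.60 ± 0.13. It was the lowest member by its highest probe set, and 6 receptor genes had a higher mean. The single probe set of Fbxo15 lay close to the middle of the array, above 51.1% of all probe sets.

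Among the nuclear factors, the values of Sall4 and Utf1 depended on the probe set, and Zfp296 had a single one. Sall4, a zinc finger protein that acts with Oct4 and recruits the NuRD repressor complex, had 10.35 and 10.51 with 1424152_at, a mean of 10.43 ± 0.11 (SD, n = 2 arrays). With 1424153_s_at it had 7.06 and 6.99, a mean of 7.03 ± 0.05. The annotation gives the same source transcript for both probe sets, and both were above the highest receptor gene. Utf1, a factor bound to chromatin in ES cells, had 7.81 and 7.60 with 1416899_at, a mean of 7.70 ± 0.15. Its other probe sets were lower, with 5.39 and 5.53 for 1443786_at and 5.42 and 5.47 for 1458333_x_at. These 2 were within the range of the receptors, of which 9 genes had higher means, so the level of Utf1 rests on 1 probe set. Zfp296, a zinc finger protein that binds Klf4, had 6.11 and 5.94, a mean of 6.03 ± 0.12. Like Dppa3 it lay at the receptors' 95th percentile, above it on array 1 and below it on array 2. Of the 4 members with a promoter window, Zfp296 was the one that held the octamer.

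Tdgf1, the Nodal co-receptor, was the member that acts at the cell surface. It had 9.63 and 9.70, a mean of 9.66 ± 0.05 (SD, n = 2 arrays), and 88.2% of all probe sets lay below it. Both values were far above those of every receptor gene.

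**Figure D2:**
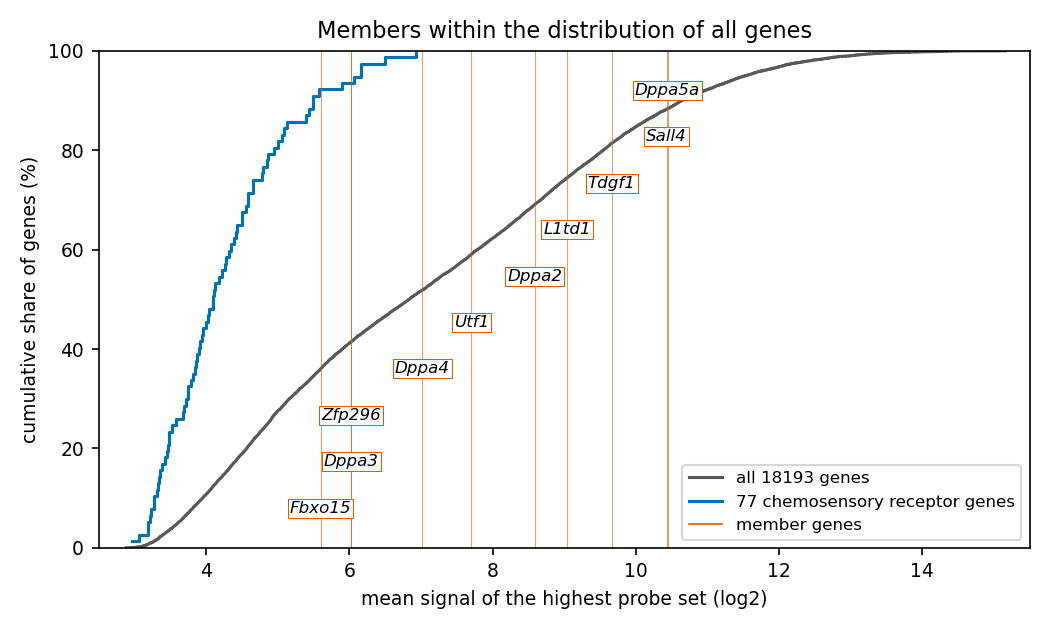
Cumulative share of genes, in percent, against the mean log2 signal of the highest probe set of each gene, for all 18193 genes (grey) and 77 chemosensory receptor genes (blue), with a vertical line at each of the 10 members. Fbxo15, Dppa3 and Zfp296 lie within the upper part of the receptors' curve, and the other 7 lie beyond its end at 6.92.

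limma, pooling the spread across the 45037 probe sets and adjusting p over them, was used to test each mean against 5. All 14 probe sets of the members passed at an adjusted p under 0.05, as did 54.8% of all probe sets. The highest adjusted p from limma among them was 0.0022, for Utf1 with 1443786_at, whose mean exceeded 5 by 0.46 with a standard error of 0.08. For Fbxo15 limma gave an excess over 5 of 0.60 with a standard error of 0.08 and an adjusted p of 9.8e-04. The same test called 11 of the 77 receptor genes, so passing it does not set a gene apart from background signal. Set against the receptors' 95th percentile instead, 9 of 14 probe sets passed with limma, beside 40.8% of all probe sets. Dppa4 was the closest of the 9, exceeding that percentile by 0.99 with an adjusted p of 2.1e-04 from limma. Dppa3 and Zfp296 differed from the percentile by -0.00059 and 0.0030, with adjusted p of 0.99 and 0.97 from limma. Fbxo15 and the 2 lower probe sets of Utf1 lay below it, by an estimated -0.43, -0.56 and -0.58. With 2 arrays, p-values measure the spread between these 2 pools alone.

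The arrays differed little for these genes. The median absolute difference over the 14 probe sets was 0.12, and over all probe sets it was 0.12 as well. The SD of the difference over all probe sets was 0.20, and 2 of the 14, those of Dppa4 and of Utf1 with 1416899_at (0.21), exceeded it, where 27.4% of all probe sets did. Of the 14, 5 were higher on array 1 and 9 on array 2. Pearson's r between the arrays was 0.997, over probe sets that are not independent of each other.

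**Figure D3:**
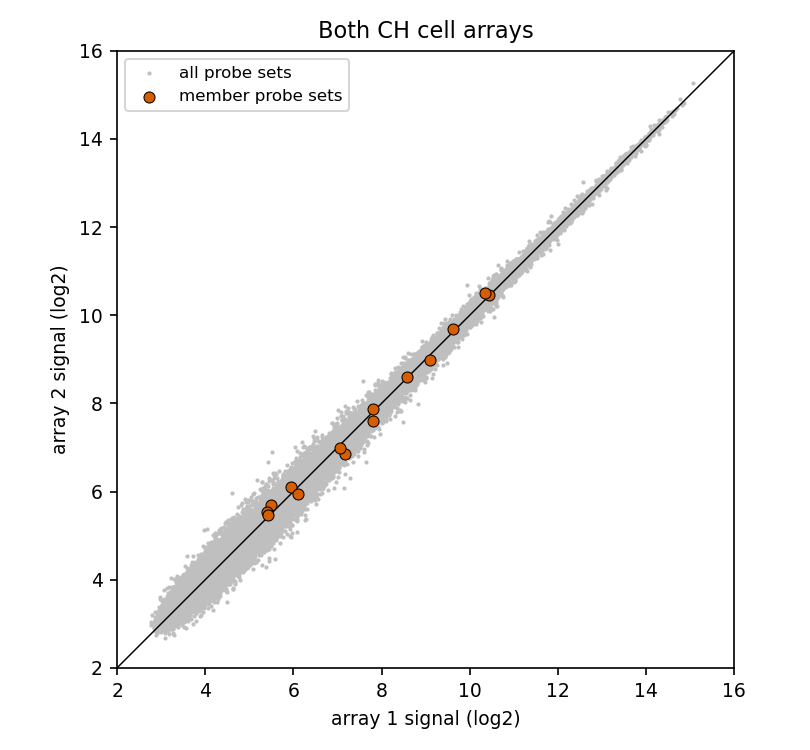
Log2 signal on array 2 against array 1 for all 45037 probe sets (grey) and the 14 probe sets of the members (orange), with the line of equal values. The members lie within the cloud of all probe sets, and Dppa4, at 7.17 and 6.86, is farthest from the line.

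Of 12 regulators of the pluripotent state, 10 were above 5 on both arrays (71.2% of all genes), with a median of 7.15. Pou5f1 had 9.49 and 9.50. Klf4, a factor that cooperates with Oct4 and binds Zfp296, had 9.22 and 9.25, with 8.18 for the mean of its other probe set. Sox2, the partner of Oct4 at the Oct-Sox element, had 6.88 and 7.35, and the lower value was within the range of the receptor genes. Klf5 had the highest level of the list with 9.66 and 9.69, but its other 2 probe sets were below 5. Nr0b1 (Dax1), at 4.85 and 4.38, and Prdm14, at 3.97 and 4.04, were the 2 regulators not above 5. When each gene was given the median of its probe sets, 7 of the 12 were above 5. For all 10 members that median was above 5 by construction, since all 14 of their probe sets were. The share of all genes under this rule was not computed, so both counts cannot be compared.

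Other transcripts of ES cells, several of them known Oct4 targets, had a median below that of the members. Of 11 that were matched, 10 were above 5 and 3 above 8, beside 71.2% and 37.0% of all genes. Their median was 6.17, below the 6.84 of all genes. Upp1, a uridine phosphorylase, had 10.70 and 10.68, Lefty1, an inhibitor of Nodal, had 10.16 and 10.03, and Dnmt3l, a cofactor of DNA methylation, had 8.04 and 8.01. Fthl17a, a ferritin-like gene, had 5.02 and 5.18, and its mean did not pass limma's test against 5 (adjusted p = 0.26). Tcl1, a coactivator of Akt, had 4.83 and 4.60. The difference between the lists was not tested.

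Partners of Tdgf1 and Sall4 were above 5 with their highest probe sets. All 12 matched genes of the Nodal pathway were above 5 and 7 were above 8, beside 71.2% and 37.0% of all genes, with a median of 8.52 beside 6.84 for all genes. Smad4 and Smad3, which carry the signal to the nucleus, had means of 11.16 ± 0.04 and 10.12 ± 0.03 (SD, n = 2 arrays). The other probe sets of Smad4 had means of 10.34 and 9.59, and those of Smad3 were at 6.35 and 5.67, close to the receptors' 95th percentile. Nodal, the ligand that Tdgf1 helps to bind, had 8.04 and 7.95 with its higher probe set and a mean of 6.64 with the other. At the lower end were Acvr2b, a receptor of Nodal, at 7.67 ± 0.06 with its lowest probe set at 4.40, and Gdf3, a related ligand, at 6.06 ± 0.07. Of the 13 genes of the Sall family and NuRD, all were above 5 with their highest probe set, with a median of 9.67. The lowest probe sets of Hdac2, Mta1 and Gatad2b were below 5, at 4.81, 4.83 and 4.89. NuRD subunits, which most cell types express, gave the high values, with Rbbp4 at 12.93, Rbbp7 at 12.82 and Hdac2 at 11.67. The paralogs Sall1, at 6.70 and 6.55, and Sall3, at 5.50 and 5.86, were the lowest of this list. Their other probe sets had means of 5.33 and 4.69.

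Genes of proteins that act with Fbxo15, L1td1 and Dppa3 were described as well. Of 9 matched genes 8 were above 5, beside 71.2% of all genes, with a median of 10.16. Skp1, the adaptor that F-box proteins bind, was at 12.87 ± 0.03 (SD, n = 2 arrays), while Rbx1, the RING subunit of the same ligase, had 5.21 and 4.98 with its single probe set. Lin28a, an RNA-binding protein that L1td1 is known to associate with, had 9.56 and 9.69, with a mean of 5.80 for its other probe set. Uhrf1, which Dppa3 is known to displace from chromatin, was at 10.58 ± 0.04. Dnmt1, the maintenance DNA methyltransferase that Uhrf1 recruits, was at 10.69 ± 0.02. Tet3, an enzyme that oxidizes methylated DNA in the zygote, had 6.17 and 6.33.

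Several members are also known from the early embryo and from germ cells, and genes of those stages were mostly low. Of 11 matched genes 5 were above 5 and 0 above 8, beside 71.2% and 37.0% of all genes. Their median was 4.88, beside 6.84 for all genes. Tfap2c had 6.87 and 7.57, and Prdm1 had 6.07 and 6.92, so both factors of germ cell precursors differed more between the arrays than any member. Zfp352, a gene of the cleavage-stage embryo, had 6.26 and 6.13, with its other probe set at 4.47. Tcstv3, another gene of that stage, had 3.66 and 3.89, and Mael, a germ cell protein, had 3.67 and 3.53.

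Markers of other cells of blood lay on both sides of 5, and stromal markers were high. Ptprc, the gene of CD45, had 4.95 and 5.24. Of the leukocyte markers 3 of 6 were above 5, beside 71.2% of all genes. Lyz2 was at 9.58, Cd3e at 6.61, Nkg7 at 5.15, Cd79a at 4.72 and Itgam at 3.85. Of erythroid and platelet markers 3 of 6 were above 5, the platelet markers Itga2b at 7.18, Gp9 at 6.41 and Pf4 at 5.98. The erythroid markers were below 5, with Alas2 at 4.91, Slc4a1 at 4.44 and the globin gene Hba-a1 at 4.22. Of 5 endothelial markers 2 were above 5, from Kdr at 6.43 and Cdh5 at 5.13 to Pecam1 at 4.57, Tek at 4.34 and Vwf at 3.83. All 8 stromal markers were above 5, among them Col1a2 at 14.27, Col3a1 at 12.83, Dcn at 11.99, Lum at 7.93 and Thy1 at 7.47, each with its highest probe set. The lowest probe sets of Col1a2, Col3a1 and Dcn were at 5.89, 9.23 and 4.29. Of 7 named housekeeping genes 5 were matched, and all 5 were above 8 with their highest probe set. Eef1a1 was at 14.65, Rplp0 at 14.47 and Actb at 14.39, with Hprt at 11.73 and Tbp at 8.44. The other probe set of Tbp was at 4.05 and that of Actb at 12.49. Whether the members and the stromal genes were expressed in the same cells was not tested.

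**Figure D4:**
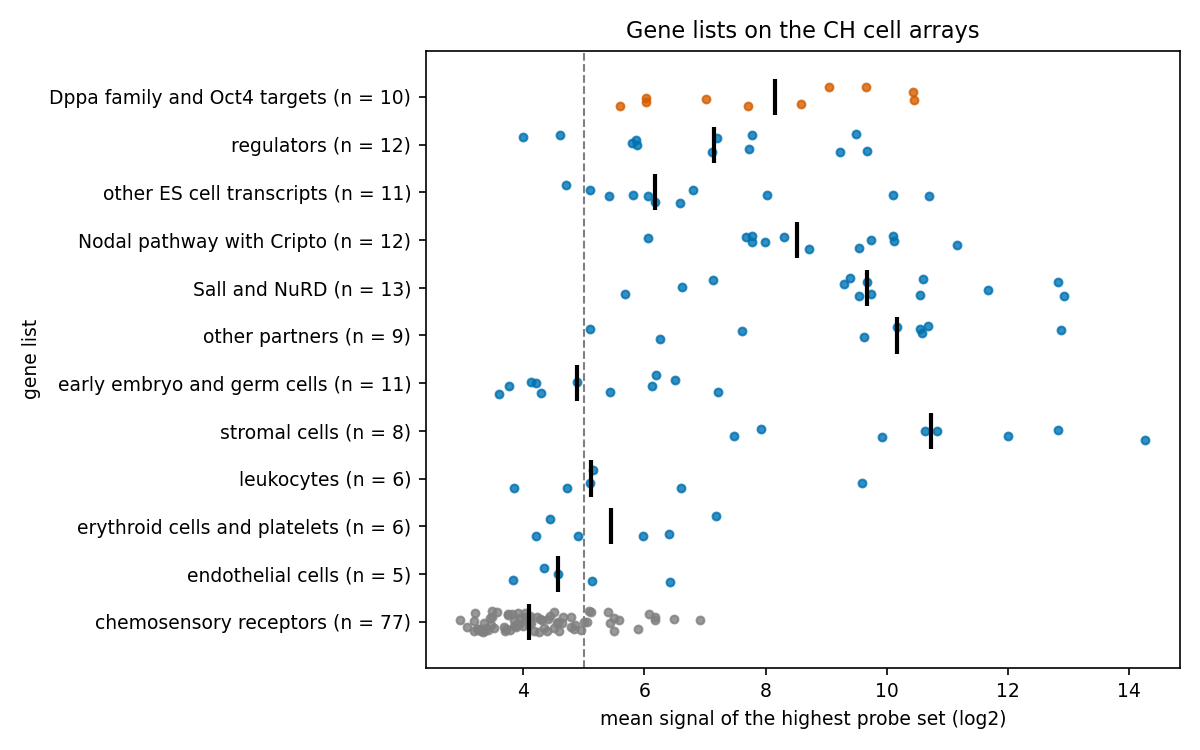
Mean log2 signal of the highest probe set of each gene on the 2 CH cell arrays, by gene list, with a circle for each gene, a black bar at the median of the list and a dashed line at 5. The medians were 8.15 for the Dppa family and Oct4 targets, 7.15 for regulators and 6.17 for other ES cell transcripts. Higher medians were those of stromal cells (10.72), other partners (10.16), Sall and NuRD (9.67) and the Nodal pathway (8.52). Lower ones were 5.44 for erythroid cells and platelets, 5.13 for leukocytes and 4.88 for early embryo and germ cells. Endothelial cells had 4.57 and chemosensory receptors 4.10.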

How the data were processed

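RNA of sorted CH cells was hybridized to 2 Affymetrix mouse arrays. The deposited values are the authors' log2 signals of probe sets. RMA with quantile normalisation, run jointly with public series, is what the methods describe. Whether it made the deposited values is not stated in the sources used here. By the methods, quantile normalisation gives all arrays 1 distribution. The medians of the CH cell arrays were 5.54 and 5.52, which does not show whether that run made these values. After removal of 64 control probe sets, 45037 remained, of which 34945 named 1 gene, 932 named several (not used for genes) and 9160 were not listed. Entrez identifiers matched 34741 probe sets to the GRCm38.p6 gene table, with 0 symbols changed. No build is named for the values, so coordinates are given for RefSeq promoter sequences alone.

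A gene was called when a probe set was above 5 on both arrays, and its highest probe set gave its level. Means were set against 5 with limma 3.58.1 in R 4.3.3 (intercept alone, two-sided, Benjamini-Hochberg over all probe sets). The step was first run on simulated data in which all probe sets had the same spread. Spreads that differ between probe sets were not covered there. Python 3.11.15, numpy 2.4.6, pandas 2.3.3 and matplotlib 3.10.9 were used. The members and lists were chosen with earlier results of these data known. Named were all members, Pou5f1, Sox2, Nanog, Klf4, Ptprc, the highest receptor gene, and up to 3 highest and 2 lowest genes of each list. Nodal and Lin28a were added after their values were seen. Listed genes without a probe set of their own were not analysed here. Limits of 6, 8 and the receptors' 95th percentile, quantile normalization, each array left out, the median over probe sets, the omission of _s_at and _x_at probe sets and a call by limma were tried.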

Additional observations from a re-analysis of the deposited data

How the results depend on the processing

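No paired analysis was possible because both arrays belong to 1 group. A higher limit admits fewer genes by its construction. At 8, the counts above it were 5 member genes, 5 member probe sets (5 with limma), 3 regulators, 3 other ES cell transcripts, 7 genes of the Nodal pathway and 0 of early embryo and germ cells. At 6, 9 member probe sets remained above (9 with limma), and at the receptors' 95th percentile 9 as well (9 with limma), with 6 other ES cell transcripts. Of all genes, 37.0% were above 8 and 57.5% above that percentile, which 40.8% of all probe sets passed with limma. Shares of all probe sets at 6 and 8 were not computed, so the probe set counts there describe the members alone. The member genes above 5 numbered 10 under quantile normalization, without either array, with the median over probe sets, without _s_at and _x_at probe sets and by limma. Leaving out an array or taking the median could not lower this count, since all 14 probe sets were above 5 on both arrays. The level of Utf1 was 5.46 with the median over its probe sets, that of Sall4 8.73 and that of Dppa2 8.22, and 7.84 for Dppa2 without its _s_at probe set. The other 7 members have a single probe set. limma could not be fitted with 1 array left out, since no residual spread remains. The number of arrays limits the precision of every level.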
